A study of Drosophila melanogaster with 9 samples.

Results

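Antisense RNA (asRNA) genes are noncoding genes that FlyBase, the fly genome database, names asRNA because they lie opposite another gene on the other DNA strand. The table of testis fragment counts held 502 genes with such a symbol, none of them on the Y chromosome. The 490 asRNA genes described here were chosen by their counts: at least 10 fragments summed over all 9 libraries. They are 490 of the 17575 genes of the table. Each was paired with its partner, the gene on the opposite strand with which it shares the most exonic bases. All 490 had one, and the partners were 477 different genes.

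The study compared 3 genotypes, each with 3 biological replicates of testes pooled from 1- to 3-day-old adult males kept at 25 °C. In *U2af38* RNAi and in *SRPK* RNAi, the *bam-GAL4* driver expressed a hairpin against the named gene in late spermatogonia and spermatocytes (SCs), so the knockdown was aimed at those stages and not at the other cells of the testis. Control males were of the parental driver stock or siblings from the cross, and which of these, and which hairpin line, gave the sequenced testes is not given in the sources used here. *U2af38* encodes the small subunit of U2AF, which recognises the 3′ splice site, and *SRPK* encodes a kinase of serine- and arginine-rich splicing proteins. By the study's own microscopy, germ cells of *U2af38* RNAi testes did not complete development, whereas those of *SRPK* RNAi testes looked normal. The study asked what becomes of transcripts when splicing is disturbed in SCs. The libraries kept strand, which is what allows an asRNA gene to be told apart from its partner.

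An antisense transcript shares sequence complementarity with its partner, and the members of such a pair can be transcribed from a shared bidirectional promoter, run towards each other, or lie one inside the other. Known examples act by interfering with transcription of the partner, by changing its isoform choice, or by forming double-stranded RNA that Dicer-2 cuts into endogenous siRNAs. For most *Drosophila* asRNA genes no function is known. The testis is a tissue in which long noncoding RNAs are abundant, many of them first transcribed in SCs.

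The libraries held between 18497748 and 30002574 fragments assigned to genes. Levels are given in CPM, the fragments of a gene relative to the total of its library, scaled by TMM, a method that aligns libraries on the bulk of their genes, and levels of different genes are compared in FPKM, CPM per kilobase of exon. *U2af38* was at 2.46, 4.38 and 3.10 CPM in *U2af38* RNAi, against 37.5, 42.3 and 41.1 CPM in control (log2 fold change −3.59 ± 0.15 SE, adjusted p = 3.22e-10, edgeR). *SRPK* was at 69.0, 64.5 and 68.1 CPM in *SRPK* RNAi, against 274, 248 and 281 CPM in control (−1.99 ± 0.07, adjusted p = 4.77e-09, edgeR). Both knocked-down genes were thus low in the libraries labelled for them, and *SRPK* itself rose in *U2af38* RNAi (1.21 ± 0.06). Markers of the labelled tissue were detected in every genotype. The 5 SC markers (*aly*, *can*, *sa*, *Rbp4* and *fzo*) summed to between 488 and 512 CPM in *U2af38* RNAi and between 548 and 618 CPM in *SRPK* RNAi, against 541 to 603 CPM in control. The sum holds markers that moved apart in *U2af38* RNAi. There *sa* (−1.41 ± 0.07) and *fzo* (−0.42 ± 0.06) fell, *Rbp4* rose (0.46 ± 0.08), and *aly* and *can* were not called. Scaling by library size alone raises the median of all genes by 0.64 in *U2af38* RNAi, more than the changes of *fzo* and *Rbp4*. The direction of these changes and of the sum under other scalings was not examined. In *SRPK* RNAi 1 of the 5 was higher and 1 lower. The 4 spermatid markers (*Mst87F*, *dj*, *Mst84Da* and *ProtA*) summed to between 573 and 638 CPM in *U2af38* RNAi and between 1909 and 2722 CPM in *SRPK* RNAi, against 3038 to 4067 CPM in control. The 3 male accessory gland genes that could be tested were called in neither knockdown, and the summed level of 4 such genes reached 169 CPM in a *U2af38* RNAi library and 983 CPM in an *SRPK* RNAi library, against 446 CPM in a control library. In bulk testes, fewer cells of a type and less RNA per cell cannot be told apart.

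Most asRNA genes were short, with a median exon length of 926 bases (range 202 to 15809), and 257 of the 490 had at least 1 intron. Libraries had been enriched for long fragments, and how far this lowered the FPKM of the shortest asRNA genes was not tested. The exons of 489 overlapped exons of the partner, by a median of 528 bases. The exception was *asRNA:bsAS*, which lay in an intron of *bs*, the gene of the transcription factor Blistered. The partner was protein-coding for 485 members. The span of 243 asRNA genes lay wholly within the partner, 146 overlapped it with both 5′ ends inside the overlap, 56 with both 3′ ends, and 45 contained the partner. More than 1 gene lay opposite 79 of them, and 27 also overlapped the span of a gene on their own strand. *asRNA:CR45827* and *asRNA:CR45828* were each other's partner.

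asRNA genes took 0.230 to 0.251% of all fragments in *U2af38* RNAi and 0.205 to 0.210% in *SRPK* RNAi, against 0.332 to 0.350% in control. The 3 genotypes did not overlap. These are shares of unscaled library totals. TMM multiplies those totals by 1.30 to 1.32 in *U2af38* RNAi and 0.881 to 0.945 in *SRPK* RNAi, against 0.816 to 0.864 in control. The order of the 2 knockdowns therefore holds for the unscaled shares only. A single gene, *asRNA:CR44370*, supplied 20.6% of these fragments in *U2af38* RNAi and 15.5% in *SRPK* RNAi, against 32.6% in control. The median asRNA gene had a level of 1.58 FPKM in *U2af38* RNAi (interquartile range 0.735 to 3.10) and 0.866 FPKM in *SRPK* RNAi (0.225 to 4.07), against 1.08 FPKM in control (0.161 to 6.01). Levels were thus spread most widely in control and least in *U2af38* RNAi. At 10 FPKM or more were 19 asRNA genes in *U2af38* RNAi and 47 in *SRPK* RNAi, against 74 in control. At 0 fragments in all 3 libraries were none in *U2af38* RNAi and 14 in *SRPK* RNAi, against 22 in control. Per length, 114 asRNA genes exceeded their partner in *U2af38* RNAi and 125 in *SRPK* RNAi, against 147 in control.

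With edgeR's quasi-likelihood test over all genes (adjusted p under 0.05), 441 of the 490 asRNA genes could be tested and 49 were too low. In *U2af38* RNAi against control, 191 were higher and 180 lower. The background over all 14941 genes tested was 44.7% higher and 37.5% lower, and the shares among asRNA genes were 43.3% higher and 40.8% lower. The median log2 fold change was 0.13 for asRNA genes, with or without the genes at 0 in control set to their lower bound, and 0.12 for all genes. Of the 191 higher asRNA genes, 45 had at most 3 fragments in the control libraries together. Of the 441 tested, 149 reached the minimum level in every library of *U2af38* RNAi only, so a change upwards was built into their passing the filter. Among the 236 with at least 10 fragments in every library, 50 were higher and 149 lower (21.2% and 63.1%), and under the same filter 42.8% of all 11457 genes were higher and 40.2% lower. The split also moves with the scaling. With library size alone, which raises the median of all genes by 0.64 on the log2 scale, 223 were higher and 135 lower.

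Calls were also counted by the level of the gene, as the plot of change against level shows. Classes were set by the mean over all 9 libraries, after earlier results were known, and that mean holds the libraries compared, so the classes are a description. Of the 156 asRNA genes at 3 FPKM or more, 128 fell in *U2af38* RNAi and 14 rose (82.1% and 8.97%, median −1.82), or 102 and 23 with library size scaling. Of all 9545 genes tested in that class, 51.2% were lower and 32.3% higher (median −0.25), and of the 599 genes named as long noncoding (lncRNA) but not antisense, 74.0% were lower and 13.4% higher (median −1.88). Of the 134 asRNA genes tested between 1 and 3 FPKM, 61 rose and 44 fell (45.5% and 32.8%), against 56.8% and 20.5% of all genes there. Below 1 FPKM, 116 of 151 tested were higher and 8 lower (76.8% and 5.30%), against 76.6% and 5.92% of all genes there. A gene of so low a mean can pass the filter through the genotype in which it is high, so nothing is read from the direction in that class. The 4 spermatid markers were all lower in *U2af38* RNAi (median −2.82), and their part in the fall of the asRNA genes was not tested.

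**Figure D1:**
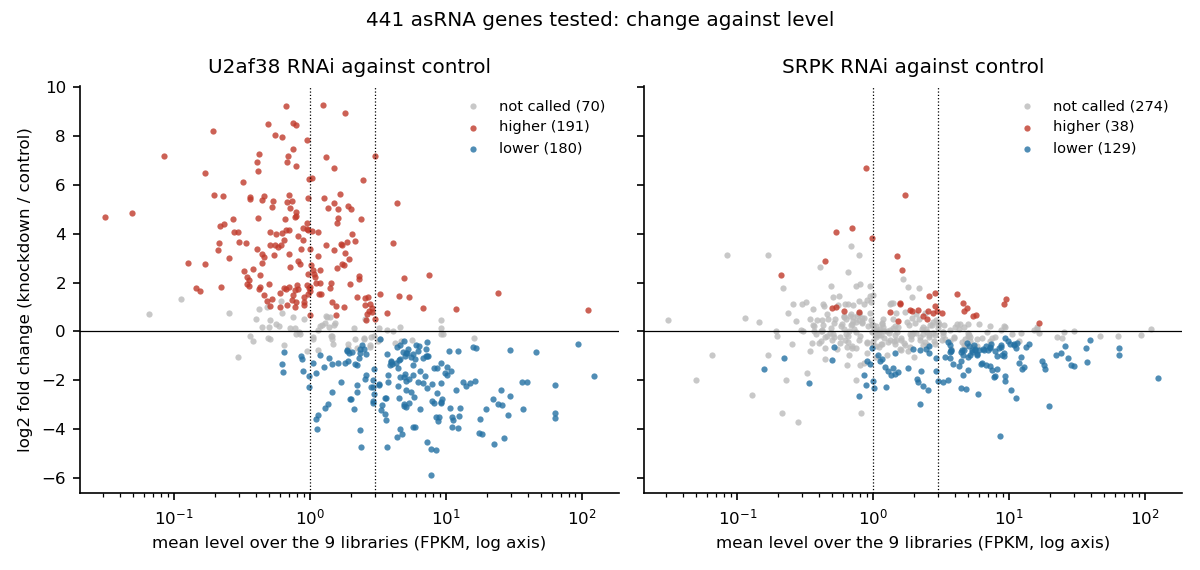
Each point is 1 of the 441 asRNA genes tested, with its mean level over the 9 libraries (FPKM, log axis) and its log2 fold change in U2af38 RNAi (left) or SRPK RNAi (right) against control. Dotted lines mark 1 and 3 FPKM, and colours the call at an adjusted p under 0.05. In U2af38 RNAi the 180 lower asRNA genes lie mainly on the right and the 191 higher ones on the left.

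**Figure D2:**
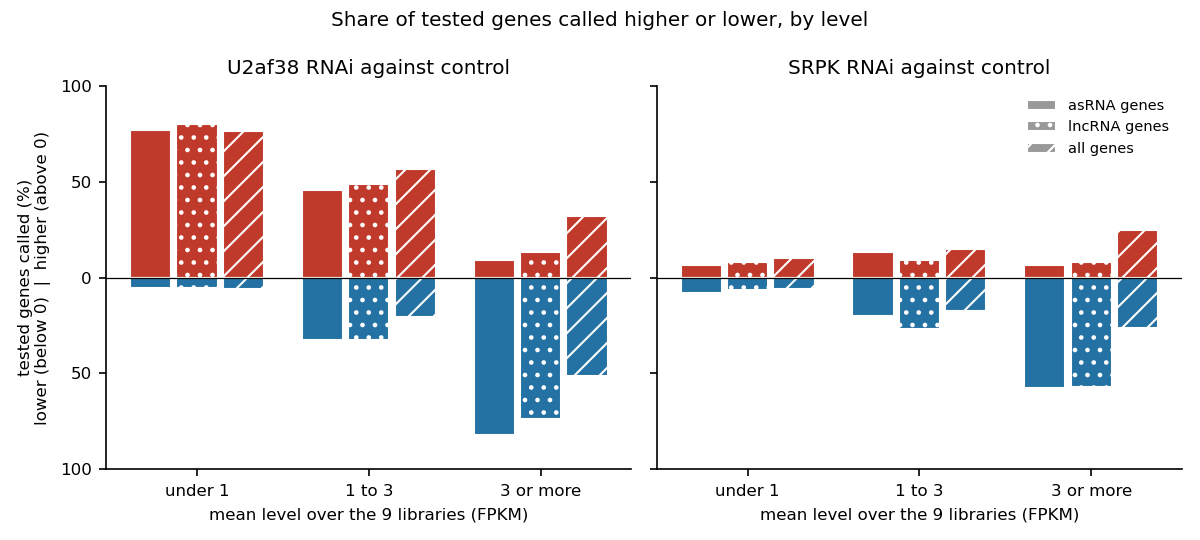
Bars give the share of tested genes called higher (above 0) or lower (below 0) in 3 classes of mean level, for asRNA genes, lncRNA genes and all genes. At 3 FPKM or more, 82.1% of asRNA genes were lower in U2af38 RNAi and 57.7% in SRPK RNAi, against 51.2% and 26.2% of all genes.

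The 5 asRNA genes with the highest level in control were all lower in *U2af38* RNAi, except *asRNA:CR45026* when library size alone was used for scaling. They were chosen by the same control libraries that the comparison uses, which favours falls, so nothing is read from their shared direction. *asRNA:CR44370* lies on chromosome 2R (15226938 to 15232665, plus strand, dm6), within *Fs*, the gene of Follistatin, a secreted protein that binds Activin-type ligands. It had 392, 376 and 363 CPM in *U2af38* RNAi and 380, 337 and 341 CPM in *SRPK* RNAi, against 1354, 1323 and 1295 CPM in control. With TMM scaling, both knockdowns lay far below control and close to each other. *U2af38* RNAi then changed *asRNA:CR44370* by −1.81 ± 0.06 on the log2 scale (adjusted p = 7.09e-11, edgeR) and *SRPK* RNAi by −1.91 ± 0.06 (adjusted p = 4.77e-09, edgeR). With library size scaling the change in *U2af38* RNAi was −1.18. That scaling shifts the median of all genes by 0.64 in *U2af38* RNAi but 0.12 in *SRPK* RNAi, so the closeness of the knockdowns depends on the scaling. *Fs* moved the other way, with 9.44, 9.83 and 10.7 CPM in *U2af38* RNAi and 8.91, 6.90 and 6.85 CPM in *SRPK* RNAi, against 3.76, 3.52 and 2.57 CPM in control (1.61 ± 0.16 for *U2af38* RNAi, 1.21 ± 0.17 for *SRPK* RNAi). The overlap of their exons is 249 bases of an asRNA of 5545.

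*asRNA:CR45056* (3R, 11535495 to 11536273, plus strand) lies within *dpr4*, an immunoglobulin-domain cell surface protein gene of the nervous system. It was at 7.35, 8.49 and 9.96 CPM in *U2af38* RNAi and 41.8, 60.6 and 59.6 CPM in *SRPK* RNAi, against 86.7, 83.9 and 91.1 CPM in control. The 3 genotypes did not overlap. The changes were −3.34 ± 0.15 under *U2af38* RNAi and −0.69 ± 0.13 under *SRPK* RNAi. *dpr4* rose in *U2af38* RNAi to 12.3, 9.68 and 12.5 CPM, against 0.501, 0.511 and 0.204 CPM in control (4.86 ± 0.27), and had 0.405, 0.388 and 0.496 CPM in *SRPK* RNAi. *asRNA:CR44182*, opposite the 5′ end of the thioesterase gene *Ppt2*, fell with its partner: 4.72, 4.26 and 6.97 CPM in *U2af38* RNAi against 51.4, 80.2 and 57.6 CPM in control (−3.57 ± 0.23), and −1.40 ± 0.14 for *Ppt2*. *asRNA:CR45686* fell to 17.2, 17.1 and 19.2 CPM in *U2af38* RNAi, against 76.5, 81.0 and 84.1 CPM in control (−2.18 ± 0.10). *asRNA:CR45026* changed least of the 5, with 53.9, 53.5 and 51.2 CPM in *U2af38* RNAi against 73.7, 77.4 and 74.8 CPM in control (−0.51 ± 0.06), and with library size scaling its log2 fold change was 0.13. Its partner *PGRP-LD*, of the peptidoglycan recognition family, had 0 fragments in control.

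The largest falls in *U2af38* RNAi were found at 5 asRNA genes, picked for their size among those whose libraries did not overlap. *asRNA:CR43787* contains the whole of *Cyp9c1*, a cytochrome P450 gene (asRNA at 2R, 24630901 to 24632932, minus strand). It was at 0.657, 0.482 and 0.645 CPM in *U2af38* RNAi and 8.75, 10.6 and 9.61 CPM in *SRPK* RNAi, against 34.6, 35.9 and 35.0 CPM in control. It thus changed by −5.88 ± 0.12 on the log2 scale under *U2af38* RNAi (adjusted p = 3.60e-12, edgeR), and its span also overlaps that of *CG13594* on its own strand. *Cyp9c1* was at 14.9, 13.2 and 16.6 CPM in *U2af38* RNAi, against 3.26, 2.90 and 3.02 CPM in control (2.28 ± 0.14). *asRNA:CR43877*, within *Arv1*, a gene whose yeast counterpart acts in sterol and lipid homeostasis, was at 0.328, 0.371 and 0.524 CPM in *U2af38* RNAi and 0.689, 0.543 and 0.631 CPM in *SRPK* RNAi, against 11.1, 13.3 and 11.8 CPM in control. Its fall was large in both knockdowns, −4.87 ± 0.21 under *U2af38* RNAi and −4.27 ± 0.20 under *SRPK* RNAi, while *Arv1* rose (0.75 ± 0.12 under *U2af38* RNAi, 0.36 ± 0.13 under *SRPK* RNAi). *asRNA:CR43786*, within the inositol hexakisphosphate kinase gene *Ip6k*, fell by 4.83 ± 0.28 on the log2 scale, and *asRNA:CR46101*, within the tankyrase gene *Tnks*, by 4.73 ± 0.32. The partners had log2 fold changes of −0.02 ± 0.06 (*Ip6k*) and 0.17 ± 0.07 (*Tnks*), whose sign turned with library size scaling for *Ip6k* (0.62) and with scaling on ribosomal protein genes for *Tnks* (−0.26). *asRNA:CR44840* had 0, 0.0742 and 0.121 CPM in *U2af38* RNAi, against 2.16, 2.10 and 1.47 CPM in control (−4.75 ± 0.49), and it lies within the span of *rsh* on its own strand. All 472 of its bases are exonic in *CG12715*, which had 161 fragments in *U2af38* RNAi against 1 in control, 131 times the control level after scaling (95% interval 23.2 to 5213, counting error only).

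The 5 asRNA genes named for a rise in *U2af38* RNAi, by fitted log2 fold change, all had 0 fragments in the control libraries. A fitted value says little of the size of such a rise, and *asRNA:CR45604*, *asRNA:CR46479* and *asRNA:CR17025*, with 2 or 3 control fragments, had larger ratios to control (302, 171 and 156) than the bounds here. Folds for the 5 are lower bounds, set against a floor of 3 fragments over the control libraries together (0.0484 CPM). *asRNA:CR45909* (3R, 7159229 to 7162936, minus strand) had 3.12, 3.23 and 3.71 CPM in *U2af38* RNAi and none in *SRPK* RNAi or control, so it was at least 69.3-fold higher. It overlaps the 5′ end of *sas*, which encodes a transmembrane protein of epithelia. *asRNA:CR45620* (X, 7959274 to 7960898, plus strand), within *sws*, the fly neuropathy target esterase, had 3.24, 2.63 and 3.83 CPM in *U2af38* RNAi and none in the other genotypes, at least 66.9-fold higher. The bounds for *asRNA:CR31084*, *asRNA:CR44238* and *asRNA:CR43454* were 54.8-, 40.5- and 40.3-fold, and each had a single fragment in *SRPK* RNAi. *asRNA:CR43454* lies within the sodium/proton antiporter gene *Nha2*, which also rose (1.22 ± 0.18).

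In all, 22 asRNA genes had 0 fragments in the 3 control libraries. As members needed 10 fragments over the 9 libraries, those at 0 in control had to have them in a knockdown, and the following is a description. They had 8 to 255 fragments in *U2af38* RNAi. In *SRPK* RNAi 15 of the 22 had any fragment, and at most 7. In *U2af38* RNAi their median level was 1.21 FPKM, with an interquartile range of 0.452 to 1.96. Among markers of other cells, the hemocyte gene *Hml* was higher in both knockdowns. It was at 233, 228 and 249 CPM in *U2af38* RNAi and 43.6, 29.4 and 30.8 CPM in *SRPK* RNAi, against 10.7, 13.4 and 23.9 CPM in control. The fat body gene *Lsp2* was lower in both (−1.67 ± 0.27 in *U2af38* RNAi and −1.44 ± 0.27 in *SRPK* RNAi). Whether hemocytes contributed to the rise of any asRNA gene was not tested.

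**Figure D3:**
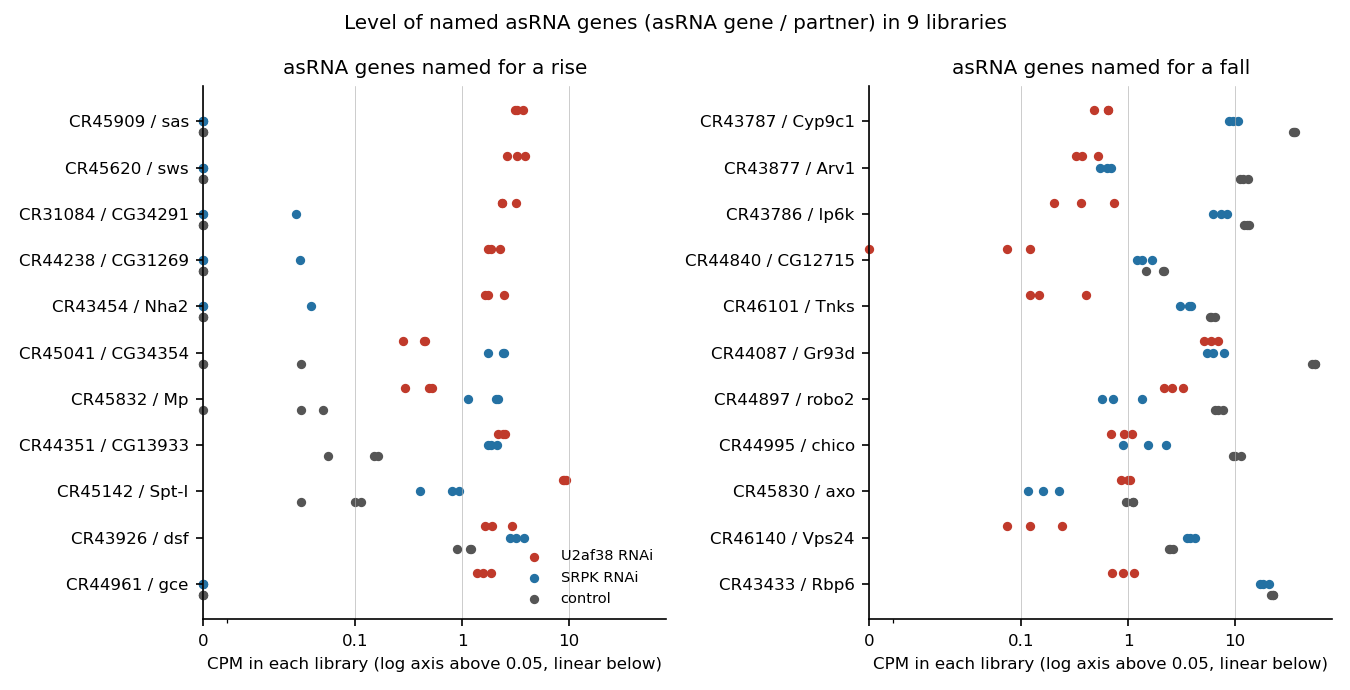
Each row is an asRNA gene and its partner, with 1 point per library for the asRNA gene (CPM, log axis above 0.05 and linear below) in U2af38 RNAi, SRPK RNAi and control. On the left, CR45909, CR45620, CR31084, CR44238, CR43454 and CR44961 lie at 0 in all control libraries. On the right, CR43877 lies under 1 CPM in both knockdowns and above 11 CPM in control.

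In *SRPK* RNAi against control, asRNA genes moved mainly down: 38 of the 441 tested were higher and 129 lower. The background over all genes was 20.3% higher and 21.1% lower, and the shares among asRNA genes were 8.62% and 29.3%. The median log2 fold change of asRNA genes was −0.21 (−0.20 with genes at 0 in 1 genotype at their bound), against 0.01 over all genes. With library size scaling 47 were higher and 114 lower, and with ribosomal protein gene scaling 32 and 134. At 3 FPKM or more, 90 of 156 were lower and 10 higher (57.7% and 6.41%, median −0.59), while 26.2% of all genes in the class were lower and 24.7% higher. The lncRNA genes of that level, which are not antisense by name, were lower in 57.1% and higher in 8.01%. Of the 129 falls, 69 were at least 2-fold. This comparison and that of *U2af38* RNAi share the control libraries. Of the 4 spermatid markers, 2 were lower (median of the 4, −0.65), and of the 4 muscle sheath markers all 4 (median −0.74). Their part in the fall of the asRNA genes was not tested.

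Of the largest falls in *SRPK* RNAi, *asRNA:CR43877* came first (values above). *asRNA:CR44087* (3R, 21845453 to 21846711, plus strand), which contains the gustatory receptor gene *Gr93d*, was at 6.20, 5.51 and 7.94 CPM in *SRPK* RNAi and 5.13, 5.93 and 6.85 CPM in *U2af38* RNAi, against 51.9, 55.0 and 55.1 CPM in control. The change was −3.05 ± 0.13 in *SRPK* RNAi (adjusted p = 3.08e-08, edgeR), and no library of either knockdown came near control. *asRNA:CR44995*, within *chico*, the insulin receptor substrate gene, was at 0.891, 1.55 and 2.25 CPM in *SRPK* RNAi, against 9.47, 10.1 and 11.4 CPM in control (−2.73 ± 0.27), while *chico* rose (0.51 ± 0.07). *asRNA:CR44897*, within *robo2*, a receptor of the axon guidance cue Slit, was at 0.567, 1.36 and 0.722 CPM in *SRPK* RNAi, against 6.87, 7.73 and 6.5 CPM in control (−2.97 ± 0.29). *asRNA:CR45830*, within the neurexin-family gene *axo*, differed between the knockdowns. It was at 0.162, 0.116 and 0.225 CPM in *SRPK* RNAi against 1.10, 0.966 and 1.10 CPM in control (−2.64 ± 0.34), and at 0.862, 1.00 and 1.05 CPM in *U2af38* RNAi (−0.13 ± 0.26). The difference between the knockdowns, *U2af38* RNAi over *SRPK* RNAi, was 2.51 ± 0.34 (adjusted p = 2.24e-05, edgeR).

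The 5 rises named in *SRPK* RNAi, also by fitted log2 fold change, included 2 genes with 1 or 2 fragments in control. *asRNA:CR45041* (3R, 28237449 to 28238570, minus strand), within *CG34354*, was at 2.47, 1.75 and 2.44 CPM in *SRPK* RNAi and 0.452, 0.445 and 0.282 CPM in *U2af38* RNAi, against 0, 0 and 0.0409 CPM in control. With 160 fragments in *SRPK* RNAi against 1 in control, the ratio was 137 (95% interval 24.2 to 5429, counting error only). *CG34354* fell in *SRPK* RNAi (−1.58 ± 0.26) and rose in *U2af38* RNAi (1.45 ± 0.23). *asRNA:CR45832*, within *Mp*, the gene of the collagen Multiplexin, had 130 fragments in *SRPK* RNAi against 2 in control (ratio 55.5, 95% interval 15.1 to 463). *asRNA:CR44351*, within *CG13933*, was at 1.74, 1.86 and 2.12 CPM in *SRPK* RNAi and 2.42, 2.19 and 2.5 CPM in *U2af38* RNAi, against 0.150, 0.0568 and 0.163 CPM in control (3.84 ± 0.34 in *SRPK* RNAi and 4.15 ± 0.33 in *U2af38* RNAi). *asRNA:CR45142* overlaps the 3′ end of *Spt-I*, a subunit of the enzyme that starts sphingolipid synthesis. It was at 0.405, 0.814 and 0.947 CPM in *SRPK* RNAi and 8.91, 8.68 and 9.39 CPM in *U2af38* RNAi, against 0.10, 0.114 and 0.0409 CPM in control (3.07 ± 0.47 and 6.70 ± 0.37). *Spt-I* was lower in both (−0.35 ± 0.09 and −0.62 ± 0.09), but at 0.02 in *U2af38* RNAi with library size scaling. *asRNA:CR43926*, at the 5′ end of the nuclear receptor gene *dsf*, had the highest control level of the 5, with 3.77, 3.22 and 2.80 CPM in *SRPK* RNAi against 1.20, 1.19 and 0.899 CPM in control (1.58 ± 0.27).

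Set directly against each other, *U2af38* RNAi had 202 asRNA genes higher and 160 lower than *SRPK* RNAi, of 441 tested. The background over all genes was 42.3% higher and 37.6% lower, and the shares among asRNA genes were 45.8% and 36.3%. With library size scaling the split was 236 higher and 121 lower, and among the 236 with at least 10 fragments in every library it was 59 and 127 (25.0% and 53.8%), where 40.5% of all genes under that filter were higher and 39.5% lower. *asRNA:CR44961*, within *gce*, a juvenile hormone receptor gene, was named in this contrast with *asRNA:CR45909* and *asRNA:CR45620*. It had 1.85, 1.37 and 1.57 CPM in *U2af38* RNAi and 0 fragments in every *SRPK* RNAi and control library (at least 33.0-fold above control). *asRNA:CR46140*, within *Vps24*, the gene of an ESCRT-III subunit, fell in *U2af38* RNAi (−4.05 ± 0.32) and rose in *SRPK* RNAi (0.63 ± 0.22). It was at 0.123, 0.0742 and 0.242 CPM in *U2af38* RNAi and 3.52, 3.76 and 4.24 CPM in *SRPK* RNAi, against 2.61, 2.44 and 2.41 CPM in control, a difference of −4.68 ± 0.31 between the knockdowns (adjusted p = 3.35e-08, edgeR). *asRNA:CR43433*, within *Rbp6*, an RNA-binding protein gene of the Musashi family, was at 0.903, 0.704 and 1.13 CPM in *U2af38* RNAi and 17.1, 18.3 and 20.7 CPM in *SRPK* RNAi, with 21.6, 22.6 and 22.5 CPM in control. The difference between the knockdowns was −4.35 ± 0.14, while for *Rbp6*, with 28.9 to 34.1 CPM in all libraries, it was 0.10 ± 0.07, or −0.25 with scaling on ribosomal protein genes. The 3rd of the largest falls in this contrast was *asRNA:CR44840* (−4.32 ± 0.50).

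Partners were considered next. Of the 477 partner genes, 448 could be tested. In *U2af38* RNAi 200 were higher and 159 lower (44.6% and 35.5%, median 0.14), near the 44.7% and 37.5% of all genes. In *SRPK* RNAi 114 were higher and 69 lower (25.4% and 15.4%, median 0.05), against 20.3% and 21.1% of all genes. Of protein-coding genes outside the Y chromosome, the type of nearly all partners, 22.3% were higher and 19.6% lower there (median 0.03). For 416 asRNA genes both members of the pair were tested. In *U2af38* RNAi both were called in 282 of these, in opposite directions in 156 (55.3%) and in the same direction in 126. Over all 3274 opposite-strand pairs, 54.0% of the 2206 with both called were opposite. The 156 were made up of 82 pairs with a lower asRNA gene and a higher partner, and 74 of the reverse. In *SRPK* RNAi both were called in 61, of which 39 were opposite (63.9%), 31 of them with the asRNA gene lower and the partner higher. Over all pairs, 51.4% of the 566 with both called were opposite, and the difference in share was not tested. Across the 416, the log2 fold changes of asRNA gene and partner had a Spearman rho of −0.07 for *U2af38* RNAi (Pearson r 0.01) and −0.15 for *SRPK* RNAi (Pearson r −0.12). These points share libraries and are not independent, since 406 partners stand behind 416 asRNA genes, and no test was made of them.

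**Figure D4:**
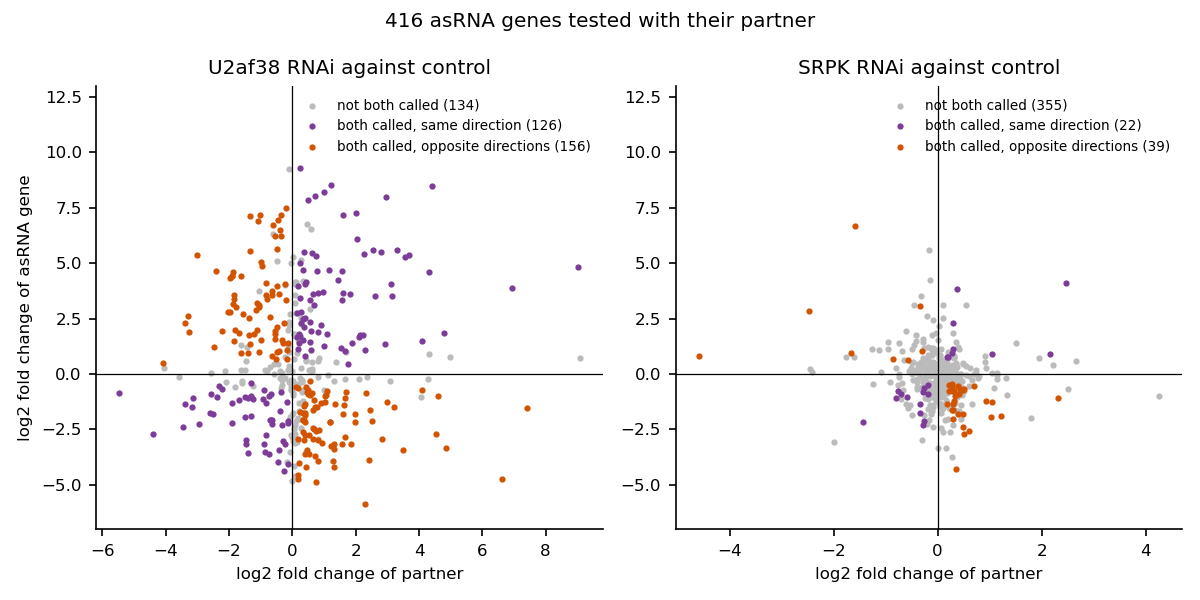
Each point is 1 of 416 asRNA genes, with the log2 fold change of its partner (horizontal) and its own (vertical) in U2af38 RNAi (left) or SRPK RNAi (right) against control. Orange points are called in opposite directions (156 and 39) and purple points in the same direction (126 and 22), and all 4 quadrants are filled. Opposite calls made up 55.3% and 63.9% of the pairs with both called, against 54.0% and 51.4% over all opposite-strand pairs.

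The ratio of asRNA gene to partner within a library does not depend on how libraries are scaled, so it was tested with limma over all 3274 opposite-strand pairs of the table. In *U2af38* RNAi the ratio was higher for 190 asRNA genes and lower for 164 of the 416, or 85.1% called, where the background over all pairs was 82.3%. In *SRPK* RNAi it was higher for 42 and lower for 114, or 37.5% called, with a background of 36.0%. Between *U2af38* RNAi and *SRPK* RNAi it was higher for 191 and lower for 145, or 80.8% called, with a background of 79.8%. The share called was near the background in each contrast. Where the asRNA gene had at least 1% of the fragments of its partner in every genotype, 281 pairs remained. The ratio of 90 of them was higher and of 138 lower under *U2af38* RNAi, and under *SRPK* RNAi 28 were higher and 93 lower. A pair low in control and higher in a knockdown drops out by this condition, so nothing is read from the split among those left. Over all 490 asRNA genes, tested or not, the asRNA gene was below that 1% in 75 in *U2af38* RNAi and 133 in *SRPK* RNAi, against 137 in control.

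The widest falls of the ratio in *U2af38* RNAi were at 4 pairs in which both members were called. The following crossings are in fragments, not corrected for gene length. *CG12715* overtook *asRNA:CR44840* (change of the log2 ratio −10.80 ± 0.84), *dpr4* overtook *asRNA:CR45056* by a small margin (−8.19 ± 0.37), and *Cyp9c1* overtook *asRNA:CR43787* (−8.12 ± 0.22). At *dpn*, the neuroblast repressor Deadpan, *asRNA:CR44275* was at 1.40, 1.48 and 1.49 CPM in *U2af38* RNAi against 11.5, 8.58 and 8.86 CPM in control. *dpn* was at 2.96, 3.00 and 3.27 CPM in *U2af38* RNAi against 0.10, 0.0568 and 0.204 CPM in control (ratio change −7.23 ± 0.47, adjusted p = 3.10e-07, limma). The widest shifts the other way were at *side-IV*, *Jhbp13*, *sws* and *CG2061*, and at *sws* the partner itself was not called (−0.11 ± 0.07, adjusted p = 0.161, edgeR). *asRNA:CR17025* overlaps the 3′ end of *side-IV*, an immunoglobulin-superfamily gene, and shares 400 bases with *asRNA:CR46354* on its own strand. It was at 6.77, 7.45 and 8.43 CPM in *U2af38* RNAi against 0.0501, 0 and 0.0817 CPM in control, 575 fragments against 3 (ratio to control 156, 95% interval 53.2 to 759). *side-IV* was at 8.17, 11.1 and 9.60 CPM in *U2af38* RNAi against 23.5, 27.2 and 22.6 CPM in control (−1.34 ± 0.12). *asRNA:CR46479*, at the 3′ end of *Jhbp13*, of the juvenile hormone-binding protein family, had 419 fragments in *U2af38* RNAi against 2 in control (ratio to control 171, 95% interval 47.0 to 1414). *asRNA:CR45604* (X, 11089231 to 11095143, minus strand) contains *CG2061* and had 741 fragments in *U2af38* RNAi against 2 in control (ratio to control 302, 95% interval 83.3 to 2497), at 3.20 to 5.0 fragments per 100 of *CG2061* in *U2af38* RNAi.

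The widest rises of the ratio in *SRPK* RNAi were those of *asRNA:CR45041*, *asRNA:CR45832*, *asRNA:CR44351* and *asRNA:CR45142*, given above. In *SRPK* RNAi the widest falls of the ratio were at *Arv1*, *NimC3*, *chico* and *trx*. *asRNA:CR43877* had 8.56, 8.26 and 8.36 fragments per 100 of *Arv1* in *SRPK* RNAi and 3.24, 4.03 and 5.66 in *U2af38* RNAi, against 200, 195 and 213 in control (−4.59 ± 0.28 in *SRPK* RNAi, adjusted p = 7.15e-06, limma). In fragments, not corrected for gene length, *asRNA:CR43877* was thus the more abundant member only in control. *asRNA:CR44849*, at the 5′ end of the Nimrod-family gene *NimC3*, was at 2.11, 2.25 and 2.75 CPM in *SRPK* RNAi against 5.16, 5.06 and 5.07 CPM in control, while *NimC3* rose (2.32 ± 0.48). *asRNA:CR46020*, within *trx*, which encodes the histone methyltransferase Trithorax, was at 1.5, 1.63 and 2.03 CPM in *SRPK* RNAi and 0.657, 0.704 and 0.645 CPM in *U2af38* RNAi, against 11.8, 9.15 and 9.60 CPM in control. *trx* was at 142, 132 and 129 CPM in *SRPK* RNAi and 207, 205 and 233 CPM in *U2af38* RNAi, against 83.4, 86.9 and 94.0 CPM in control. The order of the genotypes was reversed between *asRNA:CR46020* and *trx*.

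**Figure D5:**
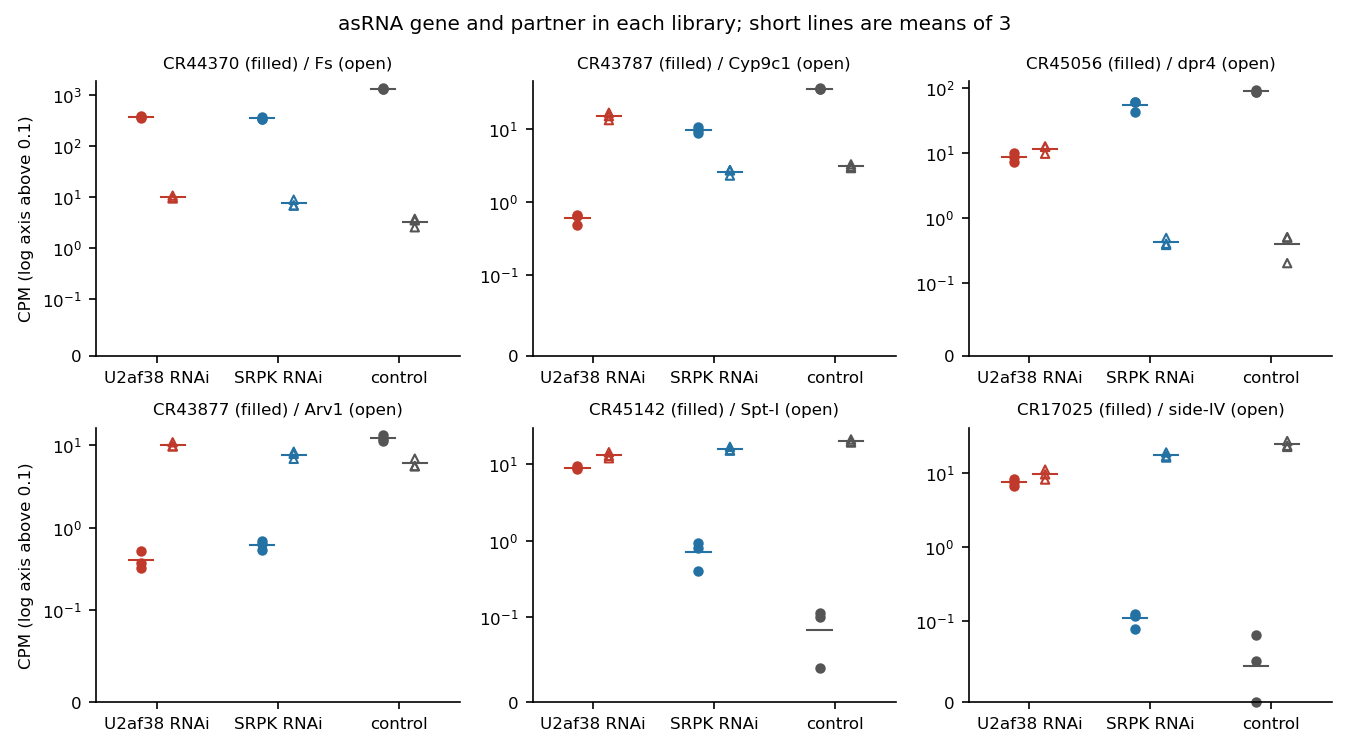
Each panel gives an asRNA gene (filled circles) and its partner (open triangles) in the 3 libraries of U2af38 RNAi, SRPK RNAi and control, in CPM on an axis that is logarithmic above 0.1. With TMM scaling, CR44370 drops by a similar amount in both knockdowns while Fs rises. In fragments, not corrected for gene length, CR45142 and CR17025 come near their partners in U2af38 RNAi, at 68.2 and 78.0 per 100 of the partner. These values are 4.51 and 0.631 in SRPK RNAi and 0.398 and 0.200 in control.

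Grouped by structure, asRNA genes with an intron were higher in *U2af38* RNAi in 113 and lower in 90 of 236 tested (47.9% and 38.1%, median 0.55), and those without an intron higher in 78 and lower in 90 of 205 (38.05% and 43.9%, median −0.29), beside 44.7% and 37.5% of all genes. In *SRPK* RNAi, 21 with an intron were higher and 65 lower (median −0.14), and 17 without were higher and 64 lower (median −0.29), or 8.90% and 27.5% against 8.29% and 31.2%, beside 20.3% and 21.1% of all genes. By arrangement in *U2af38* RNAi, asRNA genes overlapping the partner at both 3′ ends were higher in 27 and lower in 13 of 51 (52.9% and 25.5%). Those within the partner were higher in 92 and lower in 103 of 220 (41.8% and 46.8%). Those overlapping at both 5′ ends split into 52 higher and 51 lower of 127 (40.9% and 40.2%), and those containing the partner into 20 and 13 of 43 (46.5% and 30.2%). In *SRPK* RNAi, 9 were lower and 2 higher of 51 at 3′ ends (17.6% and 3.92%), and 75 and 20 of 220 within the partner (34.1% and 9.09%). At 5′ ends 32 were lower and 11 higher of 127 (25.2% and 8.66%), and around the partner 13 and 5 of 43 (30.2% and 11.6%). Over all genes 21.1% were lower and 20.3% higher. By distance to the nearest gene upstream on the same strand, within 1 kb 38 were higher and 43 lower of 97 in *U2af38* RNAi (39.2% and 44.3%). From 1 to 10 kb 99 were higher and 90 lower of 226 (43.8% and 39.8%), and beyond 10 kb 54 and 47 of 118 (45.8% and 39.8%). The counts in *SRPK* RNAi were 11 higher and 29 lower within 1 kb (11.3% and 29.9%), 15 and 67 from 1 to 10 kb (6.64% and 29.6%), and 12 and 33 beyond 10 kb (10.2% and 28.0%). Of asRNA genes whose mean level per length was above that of the partner, 81 were lower and 35 higher of 134 in *U2af38* RNAi (60.4% and 26.1%). Of those under 10% of the partner, 81 were higher and 19 lower of 123 (65.9% and 15.4%), where the filter on low counts bears as in the class below 1 FPKM. None of these groups was tested against another.

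Genes whose products handle double-stranded or unstable RNA were read beside these. Of 7 factors of the endogenous siRNA and double-stranded RNA pathways, 3 were higher and 2 lower in *U2af38* RNAi, and 2 were higher and none lower in *SRPK* RNAi. Lists this short are read against the background over all genes, 44.7% higher and 37.5% lower under *U2af38* RNAi and 20.3% and 21.1% under *SRPK* RNAi, and nothing is read from their counts. *Dcr-2*, the Dicer that cuts double-stranded RNA, changed by 0.09 ± 0.05 under *U2af38* RNAi and 0.04 ± 0.05 under *SRPK* RNAi on the log2 scale, neither past the threshold. *r2d2*, its double-stranded RNA-binding partner, rose in *U2af38* RNAi (0.49 ± 0.09), as did *blanks*, a testis double-stranded RNA-binding protein gene (0.36 ± 0.07), and *Hen1*, the methyltransferase that protects siRNAs, fell (−0.53 ± 0.06). Of 11 genes of the nuclear RNA exosome and its helicase, which degrade many unstable noncoding RNAs, 7 were higher and 4 lower in *U2af38* RNAi, and 3 were higher and none lower in *SRPK* RNAi. The helicase gene *Mtr4* was at 234, 235 and 250 CPM in *U2af38* RNAi and 99.1, 94.9 and 93.6 CPM in *SRPK* RNAi, against 73.1, 76.9 and 83.4 CPM in control (1.62 ± 0.06 and 0.30 ± 0.06). The exosome core gene *Mtr3* fell in *U2af38* RNAi, with 6.20, 6.75 and 5.68 CPM against 22.7, 20.8 and 21.2 CPM in control (−1.79 ± 0.08). The catalytic subunit gene *Rrp6* fell by 0.42 ± 0.07 and *Dis3* rose (0.64 ± 0.07). In *U2af38* RNAi, library size scaling shifts the median of all genes by 0.64, and scaling on ribosomal protein genes by −0.44. The changes of *r2d2*, *blanks*, *Hen1* and *Rrp6* are near these shifts in size, and their direction under those scalings was not examined.

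At the edge of the choice of members, *asRNA:CR46045* came in with 10 fragments over the 9 libraries, and *asRNA:Eig63F-2* and *asRNA:CR44375* with 11 each. *asRNA:CR44181*, with 9, and *asRNA:CR43916* and *asRNA:CR45813*, with 8 each, stayed out.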

How the data were processed

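Total RNA of 9 testis libraries, depleted of ribosomal RNA and made with a stranded dUTP kit, was read on 2 lanes each. The authors aligned read pairs to dm6 with STAR 2.7.1a and counted them per gene and strand with featureCounts 1.6.2 on the FlyBase 6.37 annotation. The deposited values are whole fragment counts, with gene length in a column beside them. Lanes were summed here, symbols were matched for 17512 of the 17575 gene identifiers, and exons came from the deposited coordinates. Ensembl gave gene types and introns, and its exons were the same as the deposited ones for all 490 members.

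edgeR 4.0.16 (R 4.3.3, TMM, filterByExpr, quasi-likelihood, all 3 genotypes in 1 fit) tested 14941 genes. limma 3.58.1 tested log2((asRNA + 0.5)/(partner + 0.5)) over 3274 pairs. P-values were Benjamini-Hochberg adjusted over all genes or pairs, with 0.05 as the threshold. SE are of log2 fold changes. Scripts were tested on simulated data. Total counts of 18497748 to 30002574 per library set the precision, and intervals cover counting error only.

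Named were the 5 asRNA genes highest in control, the 5 largest rises and falls per knockdown (3 between knockdowns) and the 4 widest ratio shifts each way, among calls with a mean of 0.5 CPM or more and no overlap of libraries, and their partners. Members, lists and groups were chosen with earlier results of these data known. Alternatives were DESeq2 1.42.0, other scalings, filters, pseudocounts, partners and blocks, and leaving out each library. No sequence was used here.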

Additional observations from a re-analysis of the deposited data

How the results depend on the processing

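Of 330 recomputed counts of asRNA genes or pairs, 315 stayed within 1.5 times the main count and 15 moved further. With at least 10 fragments in every library, 50 asRNA genes were higher in *U2af38* RNAi against control and 59 against *SRPK* RNAi, and the ratio was higher for 55 in *U2af38* RNAi, for 25 under *SRPK* RNAi and for 55 between the knockdowns. With the asRNA gene at 1% or more of its partner, the ratio was higher for 90 in *U2af38* RNAi and 96 between the knockdowns. A log2 fold change of at least 1 left 19 higher and 69 lower in *SRPK* RNAi. At 3 FPKM or more, an alternative added after the data were seen, library size scaling gave 23 higher in *U2af38* RNAi and 34 between the knockdowns, and a log2 fold change of at least 1 left 9 and 14, with 4 higher and 39 lower in *SRPK* RNAi. By construction, these filters remove genes. Library size scaling changed the split (above), and shifted the median of all genes by 0.64 in *U2af38* RNAi.

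Of 3456 recomputed values of single genes and pairs, 3270 kept their side of the threshold, and 50 gained and 113 lost the call. Among the 3270 the sign could change where neither fit called the value. *asRNA:CR45830* in *U2af38* RNAi did so, at −0.13 in the main fit and 0.51 with library size scaling. The remaining 23 changed sign with a call in the main fit or the recomputed one, nearly all of them partners. In *U2af38* RNAi against control, library size scaling gave 0.62 for *Ip6k*, 0.58 for *chico*, 0.13 for *asRNA:CR45026*, 0.020 for *Spt-I*, 0.53 for *sws* and 0.50 for *Vps24*. Upper-quartile scaling gave 0.29 for *Ip6k*, 0.24 for *chico*, 0.20 for *sws* and 0.16 for *Vps24*. Ribosomal protein gene scaling gave −0.34 for *Rbp6*, −0.31 for *CG13933*, −0.021 for *CG42676*, −0.20 for *sas* and −0.26 for *Tnks*. At least 10 fragments in every library gave 0.16 for *Ip6k* and 0.042 for *Vps24*, and a pseudocount of 5 gave −0.17 for the ratio of *asRNA:CR45041* to *CG34354*. Between *U2af38* RNAi and *SRPK* RNAi, *sws* was at 0.36 with library size scaling, 0.15 with upper-quartile scaling and 0.0095 with at least 10 fragments, *sas* at 0.048 with library size scaling and *Rbp6* at −0.25 with ribosomal protein gene scaling. The cause was not tested.

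Leaving out each library gave 187 to 198 higher and 176 to 183 lower in *U2af38* RNAi, 31 to 41 and 114 to 128 in *SRPK* RNAi, and 195 to 208 and 154 to 162 between the knockdowns. For the ratio the ranges were 178 to 191 and 159 to 166, 31 to 43 and 96 to 115, and 178 to 190 and 139 to 146. At 3 FPKM or more they were 13 to 14 and 125 to 128, 10 to 11 and 83 to 91, and 21 to 23 and 108 to 113.

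Same-numbered libraries did not deviate together (correlations of 0.29, 0.28 and −0.12 for *U2af38* RNAi and control, −0.40, −0.30 and 0.36 for *SRPK* RNAi and control, and −0.46, −0.19 and −0.17 between the knockdowns). With the replicate block, 191 were higher and 179 lower under *U2af38* RNAi, 34 and 124 under *SRPK* RNAi, and 194 and 159 between the knockdowns, and the ratio counts were 191 and 164, 42 and 113, and 191 and 142.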
